A study of Mus musculus with 4 samples.

Results

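The cytosines described here lay between 2000 and 5000 bp upstream of a protein-coding transcription start site (TSS) in the liver of 4 mice. A cytosine was a member if it was on an autosome, had at least 10 reads in every mouse, had its nearest curated coding RefSeq start within that distance downstream of it, lay more than 2000 bp from any annotated start and was outside every annotated transcript. The rule used position and coverage, not methylation. It found 7777 cytosines at 6695 CpG dinucleotides and 1650 genes. In all, 1276684 cytosines had at least 10 reads in every mouse, 1253673 of them on the autosomes. The livers came from male mice aged 6 to 8 weeks on a normal diet. Mixed-1 and Mixed-2 had an undefined mixed background that included C57BL/6J, and the pair B6-1 and B6-2 was C57BL/6. Values of the 4 mice are given with the Mixed mice before the B6 mice, each in order of number. The strains were housed at different institutions, so that strain, housing and sequencing depth cannot be told apart. DNA was profiled by enhanced reduced representation bisulfite sequencing (ERRBS), in which the enzyme MspI cuts at CCGG, short fragments are selected, and bisulfite turns unmethylated cytosine into a base read as T. The methylation level of a cytosine was the percent of its reads that were C. It includes hydroxymethylcytosine, which bisulfite does not separate from methylcytosine.

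In mammals most CpGs outside CpG islands are methylated, whereas CpG-rich stretches at gene starts are usually free of methylation. Islands can reach or lie upstream of a start, and in stretches around developmental regulators the unmethylated domain can be broad. Between such stretches, enhancers and other regulatory elements often show intermediate levels, and repeats are usually methylated. Whole liver holds hepatocytes together with endothelial, Kupffer, stellate and blood cells, and in such tissue an intermediate level can come from a mixture of cells, of alleles or of molecules.

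The reference sequence shows how CpGs are placed in stretches of different methylation. A region was a run of members of the same gene with gaps of at most 200 bp, and it was called low, intermediate or high where it held at least 5 members and its mean was below 20%, between 20% and 80%, or above 80% in each of the 4 mice. The stretches below hold the most member CpGs in up to 300 bases of the 4 low regions with the most cytosines, of the intermediate region and of the high region with the most. They are the plus strand of GRCm38 (mm10), 5′ to 3′, and capitals mark the CpGs that were members.
Prdm13: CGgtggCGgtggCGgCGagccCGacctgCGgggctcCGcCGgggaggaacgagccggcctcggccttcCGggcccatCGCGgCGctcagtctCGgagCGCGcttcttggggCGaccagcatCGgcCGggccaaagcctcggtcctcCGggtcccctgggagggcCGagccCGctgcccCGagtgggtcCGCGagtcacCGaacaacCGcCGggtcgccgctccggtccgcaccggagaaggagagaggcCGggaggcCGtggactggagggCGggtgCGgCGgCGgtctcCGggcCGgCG
Uts2r: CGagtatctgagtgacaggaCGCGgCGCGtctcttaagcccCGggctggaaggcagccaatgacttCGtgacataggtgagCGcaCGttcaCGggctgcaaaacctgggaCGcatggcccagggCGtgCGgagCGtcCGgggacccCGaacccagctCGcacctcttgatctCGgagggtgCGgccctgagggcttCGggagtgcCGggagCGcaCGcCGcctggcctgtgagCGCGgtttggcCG
Spred2: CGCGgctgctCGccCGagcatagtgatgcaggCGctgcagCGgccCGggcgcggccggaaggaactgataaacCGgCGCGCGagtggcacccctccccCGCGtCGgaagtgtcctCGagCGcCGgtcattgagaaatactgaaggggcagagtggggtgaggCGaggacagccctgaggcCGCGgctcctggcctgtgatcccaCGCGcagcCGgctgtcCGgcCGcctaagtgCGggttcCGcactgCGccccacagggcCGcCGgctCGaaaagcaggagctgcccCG
Fosl2: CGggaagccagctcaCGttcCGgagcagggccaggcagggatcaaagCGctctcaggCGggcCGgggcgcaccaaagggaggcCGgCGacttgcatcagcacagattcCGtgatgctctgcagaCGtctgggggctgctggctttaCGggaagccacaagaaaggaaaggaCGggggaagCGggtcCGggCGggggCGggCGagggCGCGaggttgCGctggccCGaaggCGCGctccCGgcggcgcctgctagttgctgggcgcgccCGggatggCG
Dnajc22: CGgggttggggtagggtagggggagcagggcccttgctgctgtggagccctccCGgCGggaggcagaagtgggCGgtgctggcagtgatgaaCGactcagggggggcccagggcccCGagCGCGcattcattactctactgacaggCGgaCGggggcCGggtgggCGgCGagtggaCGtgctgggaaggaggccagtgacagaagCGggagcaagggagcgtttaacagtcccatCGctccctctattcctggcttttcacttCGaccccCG
Tmem18: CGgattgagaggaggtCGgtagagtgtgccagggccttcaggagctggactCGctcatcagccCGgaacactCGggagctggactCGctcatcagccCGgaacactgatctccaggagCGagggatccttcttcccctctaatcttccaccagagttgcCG
The Prdm13 stretch (chr4:21688712-21689011) held 45 CpGs in 300 bases, 36 of them members, and its 57 member cytosines averaged 0.478% and 0.910% in the Mixed mice and 0.639% and 0.685% in the B6 mice. The Uts2r stretch (chr11:121156714-121156959) held 27 CpGs in 246 bases, the Spred2 stretch (chr11:19920266-19920555) 35 in 290, and the Fosl2 stretch (chr5:32133004-32133281) 31 in 278. The Dnajc22 stretch (chr15:99094791-99095062), of intermediate methylation, held 19 CpGs in 272 bases. The Tmem18 stretch (chr12:30581392-30581552), which was high, held 9 CpGs in 161 bases. GC content was 77.7% at Prdm13 and 60.3% at Tmem18. The Tmem18 stretch does not stand for all high regions, since those of Zfp867 and Ccnh, given below, were mostly CpG-dense. All 6 stretches were intergenic in RefSeq.

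The members were split between low and high methylation and the 4 livers had nearly the same distribution. Mean methylation was 49.6% and 49.9% in the Mixed mice and 49.4% and 49.7% in the B6 mice (mean 49.7% ± 0.204, SD, n = 4). Hypomethylated cytosines, below 20%, made up 37.8%, 37.6%, 37.7% and 37.2% in the same order (37.6% ± 0.246). Hypermethylated cytosines, above 80%, made up 37.1%, 37.6%, 36.3% and 36.7% (36.9% ± 0.585). The remaining 25.5% ± 0.635 were intermediate. Each mouse thus had about as many members at the low end as at the high end. In bins of 10 points, 33.2% ± 0.305 of members were below 10% and 23.5% ± 0.702 were at 90% or more, while the least filled bin, from 30% to 40%, held 2.52% ± 0.0951. No methylated read was seen at 902 members (11.6%) in any of the 4 mice, and 208 (2.67%) were above 95% in all of them.

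**Figure D1:**
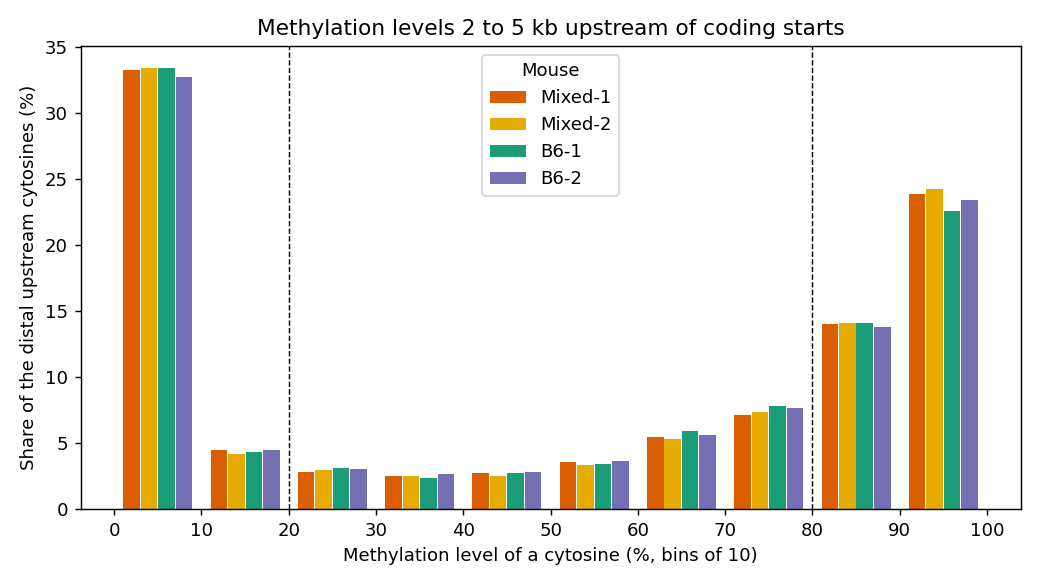
Share of the 7777 distal upstream cytosines (y axis, %) in each 10-point bin of methylation level (x axis, %), with 1 bar per mouse and dashed lines at 20% and 80%. The bars of the 4 mice nearly coincide, with 33.2% of cytosines on average in the lowest bin and 23.5% in the highest.

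Cytosine by cytosine, 2700 members (34.7%) were low in all 4 mice, 2106 (27.1%) were high in all, and 1096 (14.1%) were intermediate in all. The other 1875 (24.1%) crossed a class bound between mice, and 4 cytosines were low in 1 mouse and high in another. The mean counts every cytosine equally and is therefore weighted to long, densely read stretches. When each of the 1884 regions counted once, however few cytosines it held, the low share was 14.7%, the intermediate share 35.1% and the high share 50.2%, and mean methylation was 67.3%. Most regions were thus methylated, and the low cytosines were gathered in a smaller number of long stretches.

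Methylation rose away from the start, but within 2 to 5 kb the rise was small. The mean over the 4 mice was 47.4% ± 0.164 at 2000 to 2500 bp, 46.9% ± 0.243 at 2500 to 3000 bp, 46.9% ± 0.353 at 3000 to 3500 bp and 49.2% ± 0.211 at 3500 to 4000 bp. It was 56.1% ± 0.238 at 4000 to 4500 bp and 52.3% ± 0.287 at 4500 to 5000 bp. The order was therefore not strictly one of distance, since the bin nearest 5000 bp was below its neighbour. The farthest bin exceeded the nearest by 4.91, 5.03, 4.72 and 5.004 points in the 4 mice (4.92 ± 0.142 points, higher in 4 of 4 mice, exact two-sided sign-flip permutation p = 0.125, the smallest that 4 mice allow). The low share fell with it from 41.2% to 33.6%.

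The small rise moved with CpG density. A cytosine was called CpG-dense where the 300 bases around it, 150 bp on each side, were 50% or more G and C and held over 0.6 of the CpGs that this composition gives by chance. The share of CpG-dense cytosines went from 29.5% in the nearest bin to 20.5% in the farthest. Among CpG-dense members the farthest bin was 6.84 ± 0.355 points above the nearest, at 19.06% against 12.2%. Among the other members it was 1.24 ± 0.122 points lower, at 60.9% against 62.1%, in each of the 4 mice (exact permutation p = 0.125 for both). With regions counted once, the difference between the ends was 1.59 points, and with curated transcripts only it was 10.8 points. The sign of the difference between the end bins thus differed between the density classes. The members that were not CpG-dense did not follow the order of distance, with 58.3% at 3000 to 3500 bp and 66.4% at 4000 to 4500 bp. The part of other sequence features in this was not tested.

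**Figure D2:**
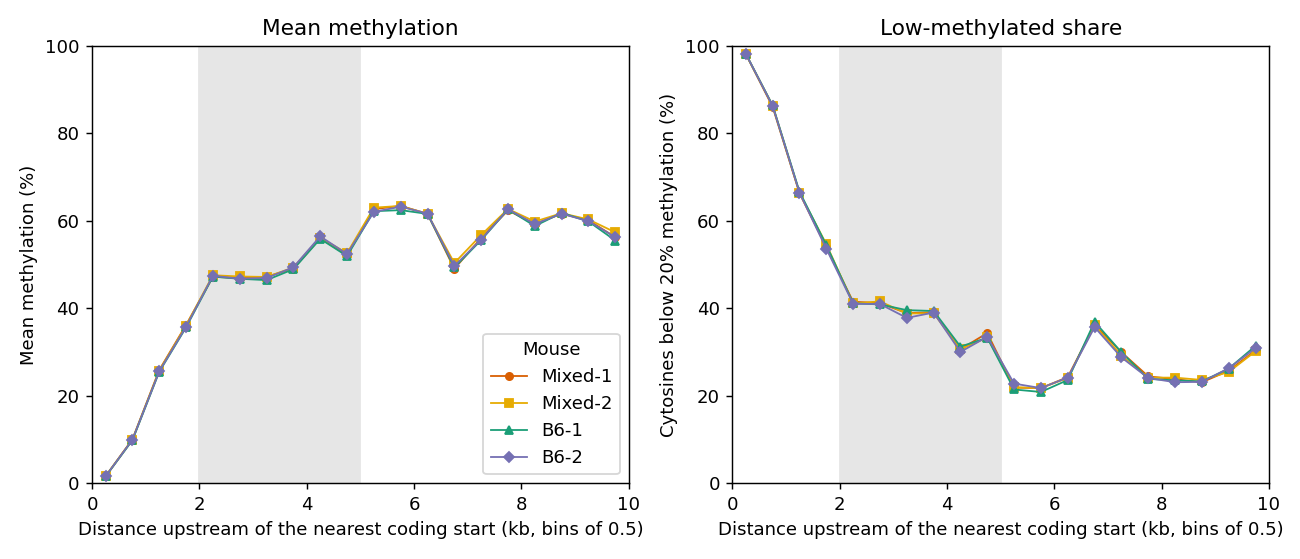
Mean methylation (left, %) and share of cytosines below 20% (right, %) by distance upstream of the nearest coding start in bins of 0.5 kb, with 1 line per mouse and the 2 to 5 kb interval shaded. The curves climb steeply up to 2 kb, from 1.57% on average in the first bin to 47.4% at 2.0 to 2.5 kb, and stay between 46.9% and 56.1% within the shaded interval.

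The mean of the interval lay between those of the flanking stretches, each taken whole. Proximal upstream cytosines, under 2000 bp from a start and outside transcripts (94612 cytosines), averaged 4.16% ± 0.0401, and 94.7% of them were low. Remote upstream cytosines, over 5000 and up to 50000 bp (47714 cytosines), averaged 64.2% ± 0.311, and 20.7% were low. The members exceeded the proximal group by 45.4, 45.7, 45.3 and 45.6 points in the 4 mice in the above order, and fell below the remote group by 14.4, 14.7, 14.5 and 14.3 points (exact permutation p = 0.125 for each). The differences were many times the spread between mice, 0.192 and 0.181 points. They were present in both density classes. CpG-dense members were 10.9 ± 0.133 points above CpG-dense proximal cytosines and 18.7 points below CpG-dense remote ones (SD 0.325 points). Other members were 38.6 ± 0.247 points above other proximal cytosines and 9.88 points below other remote ones (SD 0.203 points). With regions counted once, the members were 6.25 points below the remote group. The flanking groups were not uniform. Of the proximal cytosines, 78851 lay within 500 bp of a start, and those at 1500 to 2000 bp averaged 35.9%. Bins of 500 bp from 5000 to 10000 bp averaged between 49.6% (6500 to 7000 bp) and 63.1% (5500 to 6000 bp). At the outer bound, the 223 members at 4900 to 5000 bp averaged 64.2% and the 244 cytosines just beyond, up to 5100 bp, averaged 65.0%. At the inner bound, the 235 members at 2000 to 2100 bp averaged 39.3%, and the 355 proximal cytosines at 1900 to 2000 bp averaged 43.6%.

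The low share spanned a far wider range over the number of CpGs around a member than over distance. The 1867 CpG-dense members averaged 11.6% ± 0.140 and 86.1% ± 0.219 of them were low, whereas the 5910 others averaged 61.7% ± 0.307 and 22.3% ± 0.387 were low. The difference in the low share was 63.2 and 64.0 points in the Mixed mice and 63.4 and 64.5 points in the B6 mice (63.8 ± 0.596, exact permutation p = 0.125). With 1 to 5 CpGs in the window, 9.81% ± 0.450 of 1947 members were low. The low share was 17.7% at 6 to 10 CpGs, 48.8% at 11 to 15, 77.2% at 16 to 20, 92.2% at 21 to 30 and 99.8% ± 0.129 above 30. The high share went the other way, from 55.4% to 0%. None of the 388 members with more than 30 CpGs around them was high in any mouse. The dense class still held only 58.2% of the cytosines low in all mice, since 24.0% of members were dense.

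**Figure D3:**
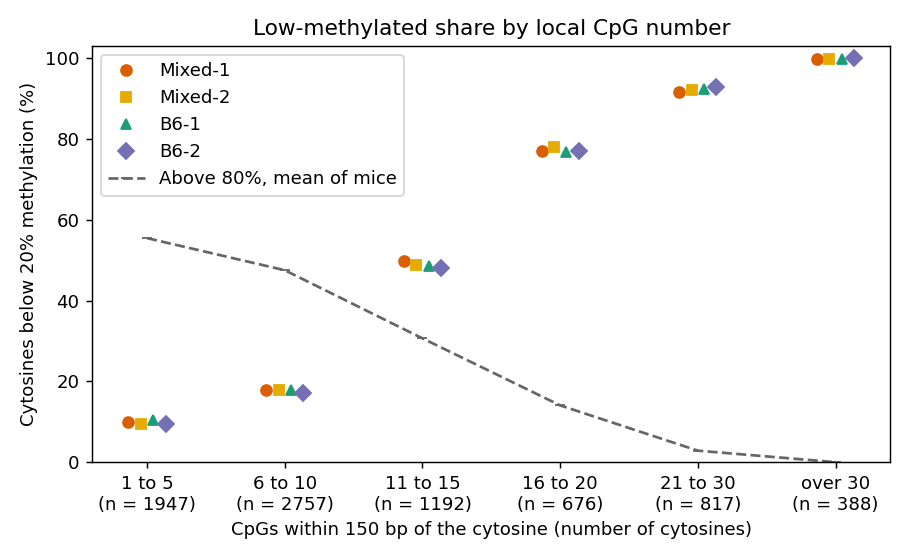
Share of members below 20% methylation in each mouse (points, y axis, %) by the number of CpGs within 150 bp (x axis, with the number of cytosines), and the mean share above 80% (dashed line, %). The low share climbs from 9.81% to 99.8% and the points of the 4 mice lie close together in every class.

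Repeats and sequence context also moved with the level. The 1028 members in soft-masked repeats averaged 76.6% ± 0.294, of which 66.7% were high, and the 6749 others averaged 45.6% ± 0.210. The difference was 31 ± 0.263 points (4 of 4 mice, exact permutation p = 0.125). Among members that were not CpG-dense, repeats averaged 78.5% and the rest 58.6%. Cytosines of the MspI site CCGG, which make up 49.2% of members because fragments end there, averaged 58.5%, and the 3804 outside CCGG and TCGA averaged 40.8%. The latter were CpG-dense in 36.9% of cases and the former in 11.1%. Among members that were not dense, CCGG sites were still 5.82 ± 0.689 points higher.

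Of the 422 regions with at least 5 members, 140 were low in each mouse, 114 intermediate and 111 high, and 57 crossed a class bound. The number of low regions was 296 when only curated transcripts excluded a cytosine. Low regions held 2393 cytosines at 121 genes, with a median of 12 cytosines and up to 106, and 44 of them held 20 or more. Intermediate and high regions were shorter, each with a median of 6 cytosines, and the largest held 25 and 15. Most members were CpG-dense in 70 of the 140 low regions (50.0%), in 6 of the 114 intermediate regions and in 13 of the 111 high regions. Most members were repeats in 1 low region and in 21 high regions (18.9%). The median distance from the start was nearly the same in the 3 classes, 3327 bp for low, 3390 bp for intermediate and 3345 bp for high regions.

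The largest low regions were upstream of genes with unlike functions, and nearly all of them were free of methylation in every liver. The Prdm13 region (chr4:21688546-21689534, 2583 to 3571 bp upstream, 106 cytosines) had a mean of 0.895% and 1.07% in the Mixed mice and 0.597% and 0.821% in the B6 mice. Prdm13 encodes a PR-domain zinc finger regulator of neuronal fate. The Spred2 region (chr11:19920126-19920575, 62 cytosines) had 0%, 0.132%, 0.186% and 0.371% in the same order. Spred2 is an inhibitor of Ras and MAP kinase signalling. The Fosl2 region (chr5:32132926-32133492, 56 cytosines) had 0.720%, 0.394%, 0.479% and 0.305%. Fosl2 is a subunit of the AP-1 transcription factor. At least 1 cytosine of this region lies in a GENCODE transcript, and a GENCODE start is 5 bp away from its nearest cytosine. All 3 regions were below 1.1% in every mouse.

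The Uts2r region stood apart from the other large low regions. Uts2r encodes the receptor of the peptide urotensin. Its 68 cytosines (chr11:121156408-121156959, 3312 to 3863 bp upstream) averaged 10.5% and 9.04% in the Mixed mice and 7.80% and 8.33% in the B6 mice, and single cytosines within it ranged from 0% to 82.4%. Only 52 of the 68 were low in all 4 mice. The other named low regions were those of Dnajc22 at 2411 to 2916 bp, Zfp292, Gclc, Id2, Egr3 and Sema3b. Their means over the 4 mice were 1.31%, 0.193%, 0.0801%, 0.153%, 0.171% and 1.04%. Gclc encodes the catalytic subunit of the enzyme that limits glutathione synthesis, Id2 an inhibitor of basic helix-loop-helix factors, Egr3 an immediate early zinc finger factor and Sema3b a secreted semaphorin. Dnajc22 is a J-domain protein and Zfp292 a zinc finger protein. Their SD over the mice was at most 0.451 points. The median coverage in the 10 low regions was between 30 and 85.5 reads.

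The low cytosines were concentrated at few genes. Of the 1650 genes, 304 had at least 1 cytosine that was low in all 4 mice and 119 had at least 5. The top 5 genes held 13.9% of all such cytosines, the top 25 held 41.5%, and 35 genes were enough for 50.0% of them. Prdm13 had 108 low cytosines of 109, Id2 82 of 82, Spred2 62 of 62 and Dnajc22 58 of 77. At Id2 the low cytosines ran from 2087 to 5000 bp with no exception, and mean methylation over the 82 was 0.187%, 0.301%, 0.204% and 0.197% in the 4 mice.

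**Figure D4:**
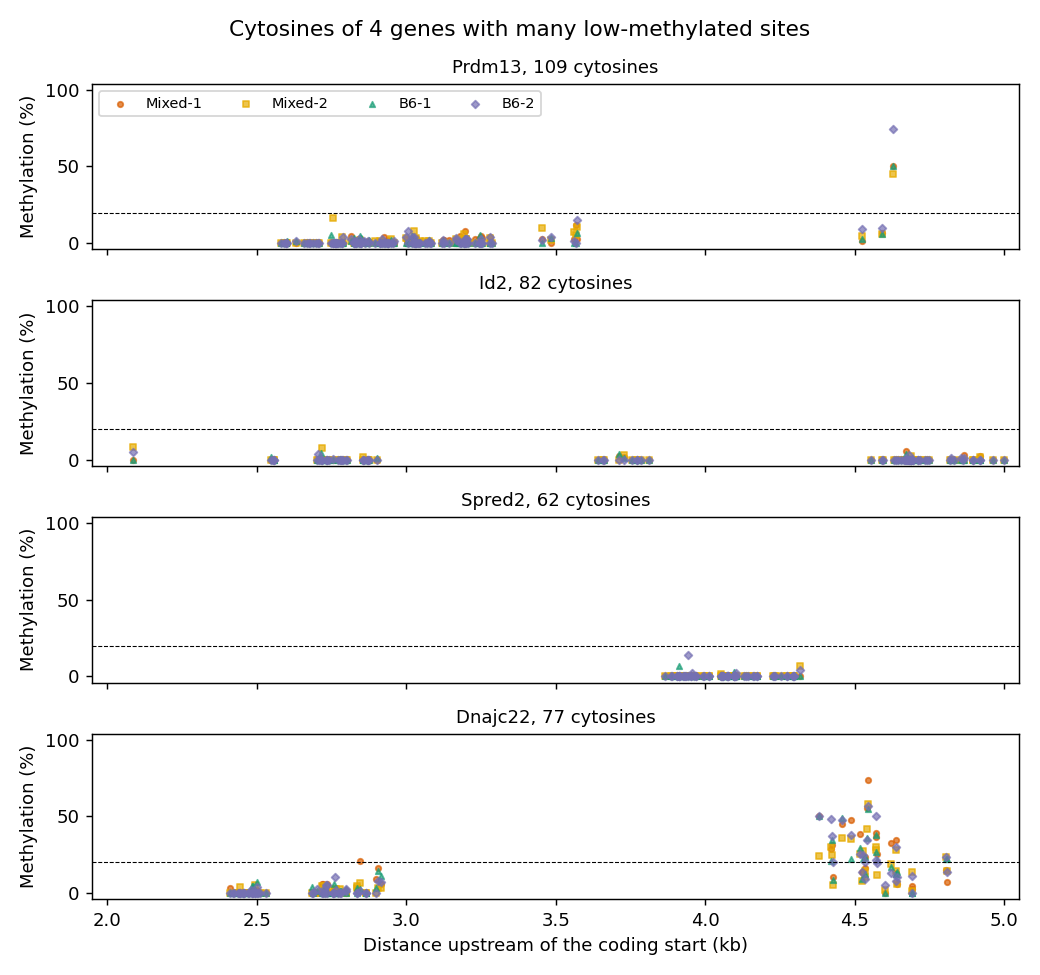
Methylation of each member (y axis, %) against its distance upstream of the start (x axis, kb) at 4 of the 5 genes with the most low cytosines, with 1 symbol per mouse and a dashed line at 20%. Id2 and Spred2 lie near 0 throughout, Prdm13 has 1 cytosine above 20%, and Dnajc22 changes from near 0 below 3 kb to a scattered intermediate level beyond 4.3 kb.

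Dnajc22 held both a low region and the largest intermediate region. Its 25 cytosines at 4382 to 4808 bp (chr15:99094676-99095102) averaged 26.6% and 21.4% in the Mixed mice and 22.4% and 25.2% in the B6 mice, against 1.78%, 0.984%, 1.40% and 1.07% for the 52 cytosines at 2411 to 2916 bp. The regions were classed by these means, so that the class bounds kept them apart. Single cytosines did overlap, with 0% to 5.0% over the mice at 4601 bp and 20.7% in Mixed-1 at 2847 bp. Other large intermediate regions were those of Homer3, a synaptic scaffold protein, at 61.7% to 66.5% over the mice, Alpl, the tissue-nonspecific alkaline phosphatase, at 45.3% to 50.9%, and Gadd45g, a stress-induced growth arrest protein, at 54.1% to 61.4%. The region of Tas1r2, a sweet taste receptor subunit, was at 68.6% to 71.2%. Within the 15 cytosines of Alpl single values ran from 0% to 95.5%, so that its mean did not describe a uniform stretch. The region of Dhx34, an RNA helicase, was at 63.4% and 66.2% in the Mixed mice and at 78.3% and 74.3% in the B6 mice, with 61.9% of its cytosines in repeats and a median coverage of only 18 reads in Mixed-1.

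The high regions with the most cytosines were small. Tmem18, a transmembrane protein, had 82.9%, 85.7%, 85.6% and 88.2% over 15 cytosines in the 4 mice. Zfp867 had 88.3%, 83.4%, 87.6% and 91.5% over 14 cytosines, all of them CpG-dense. Ccnh, the cyclin of the CDK-activating kinase, had 93.6%, 96.2%, 94.3% and 95.1% over 14 cytosines that all lay in a repeat and were CpG-dense in 85.7% of cases. Pdcd6ip, an adaptor of membrane remodelling, had 87.0%, 88.4%, 84.2% and 88.1% over 12. High CpG density therefore did not always go with low methylation in this interval.

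**Figure D5:**
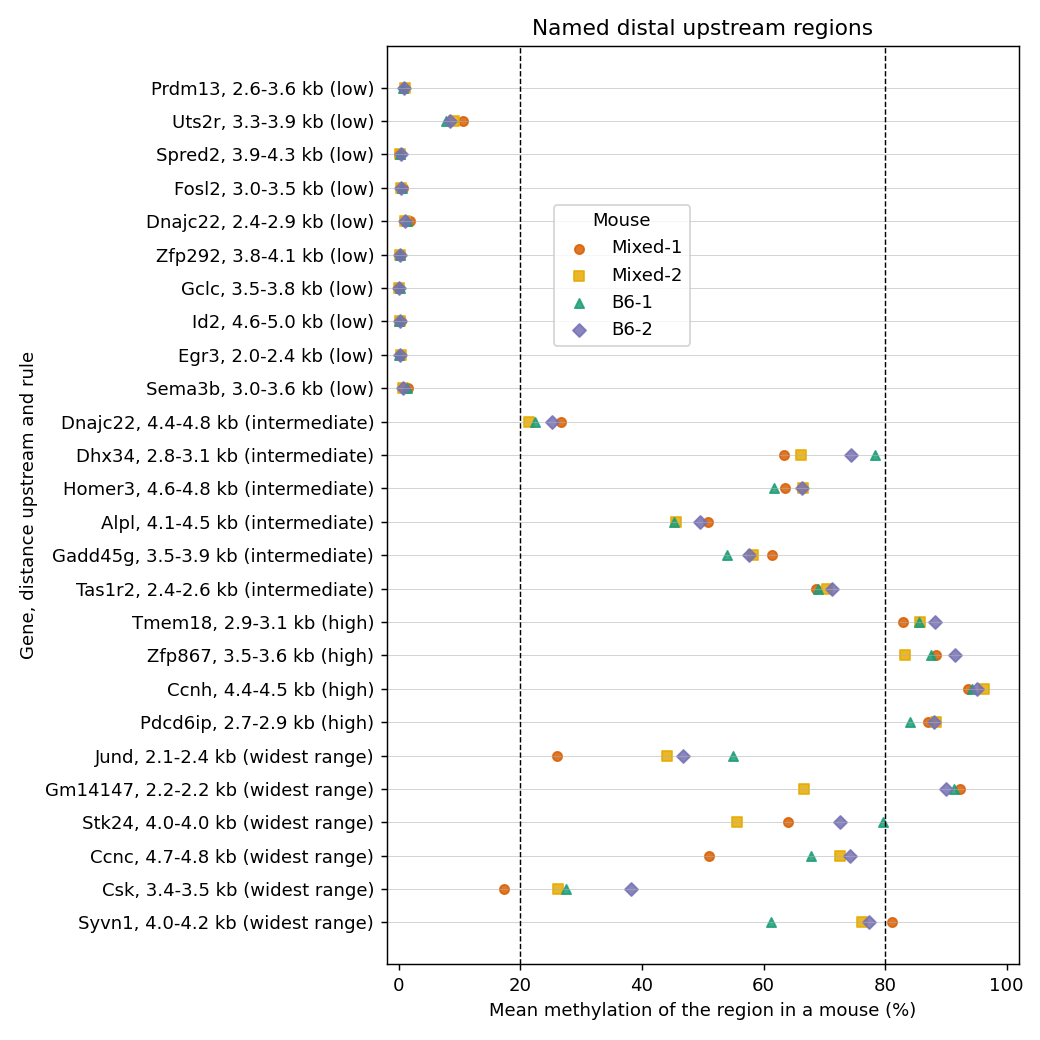
Mean methylation of the 26 named regions (x axis, %) in each mouse (symbols), grouped as low, intermediate, high and widest range between mice, with dashed lines at 20% and 80%. In the 10 low regions the 4 symbols fall within 2.73 points of each other, and the Jund region spans 28.8 points.

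Where it could be scored, the start of the gene was low-methylated for nearly all distal regions, high ones included. Within 1000 bp of the start, with at least 5 common cytosines, mean methylation was below 20% for 122 of 125 low regions (97.6%), 87 of 89 intermediate regions (97.8%) and 73 of 78 high regions (93.6%). The rest of the 140, 114 and 111 regions were not scored. Among them were those of Ttc5, at 0.169%, and Zap70, at 82.7%, with 2 start cytosines each. No share over all gene starts is given, and 94.7% of proximal cytosines were low. The stretch between the region and 1000 bp from the start differed more. Of 57 low regions with at least 5 common cytosines in that stretch, 48 (84.2%) had at least 80% of them low in all 4 mice. The same held for 8 of 16 intermediate and 2 of 6 high regions, a number too small to compare. That stretch can hold other members. For Id2 the 41 cytosines between the farthest low region and the start were all members, already counted among its 82 low ones. For Egr3 every one of the 42 cytosines in the stretch was low. At Sema3b 33.3% of 6 were low, with a mean of 63.4%.

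RefSeq decided which cytosines were outside transcripts, and GENCODE vM21 annotates more. Of the 7777 members, 1955 (25.1%) lay inside a GENCODE transcript or within 2000 bp of the start of one. They averaged 44.5% ± 0.0891 against 51.4% ± 0.263 for the 5822 others, and were CpG-dense in 32.4% of cases against 21.2%. Within density the direction differed. CpG-dense members averaged 13.8% in or near GENCODE transcripts and 10.5% outside, and the members that were not dense 59.2% and 62.4%. Of the 140 low regions, 31 touched such a transcript or came within 1000 bp of its start, as did 21 of the 114 intermediate and 32 of the 111 high regions. Among the regions named above, those of Fosl2, Homer3 and Tas1r2 and both of Dnajc22 touched such a transcript, and that of Zfp867 lay 208 bp from the start of one. Without the 1955 cytosines the low share was 35.5% and 99 low regions were left.

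Genes of developmental transcription factors, which pattern tissues in the embryo, had mostly low distal upstream cytosines. Of 246 genes on that list, 45 had members. In all, 511 of their 631 cytosines (81.0%) were low in every mouse, beside 34.7% of all members, and their median methylation was 2.87% beside 62.2%. Their low share was 86.5% and 85.3% in the Mixed mice and 85.6% and 86.2% in the B6 mice. Of their 39 regions, 31 were low, 5 intermediate and 1 high. Among their 372 cytosines that were not CpG-dense, 71% were low in all mice, beside 19.09% of all 5910 such members. The list was drawn up with earlier results of these data known, and it is described here without a test.

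Single genes of that list ranged widely. Olig2, a factor of oligodendrocyte and motor neuron precursors, had 51 low cytosines of 52 and means of 3.44%, 3.38%, 3.36% and 2.39% in the 4 mice. Nkx6-1, a homeodomain factor of pancreas and spinal cord, had 39 of 44 and means of 4.25%, 3.77%, 5.26% and 4.01%. Foxa2, a forkhead factor that is active in the liver, had 19 of 19 and means of 2.05%, 0.687%, 1.60% and 0.946%. Otx1, a head patterning factor, had 8 of 23 with means of 33.8% to 41.5%. The 6 cytosines of Olig1 had means of 92.2% to 94.7%, so that a developmental factor could also be methylated upstream.

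The other lists had few members. Of 141 hepatocyte genes, 139 were in the annotation and 14 had members. Of their 55 cytosines, 11 were low in all mice, with a median methylation of 41.8%, beside 34.7% low and a median of 62.2% over all members. Of these 11, 8 were upstream of Pklr, 2 of F12 and 1 of F2. Alb, the gene of serum albumin, had 6 cytosines 4476 to 4534 bp upstream at 90.3%, 91.2%, 89.0% and 90.4%, and Apob, the main lipoprotein of liver secretion, 4 at 79.5% to 82.7%. Afp, the fetal albumin-like protein, had 4 cytosines at 21.6%, 23.9%, 27.1% and 35.8%, and F12, a coagulation factor, 2 at 0% to 2.18%. For the 52 markers of non-parenchymal and blood cells, 21 of 30 cytosines at 5 genes were low, of which 14 were upstream of Pdgfra and 7 upstream of Spi1. For the 53 germline genes, 5 of 16 cytosines at 4 genes (31.2%) were low, a share near that of all members, and all 5 were at Pramel1. For the 65 imprinted genes, 25 of 41 cytosines at 6 genes were low, 23 of them upstream of Dlk1. The 29 cytosines of Dlk1 averaged 18.1% to 19.7%, a mean that describes no uniform stretch. Its 24 cytosines at 3050 to 3549 bp averaged 3.07% to 4.93%, and its 5 at 4807 to 4950 bp 88.0% to 93.8%. Within 1000 bp of the start, methylation was below 20% in all mice at 33 of 47 hepatocyte genes and at 9 of 18 markers of the other cells. No share over all gene starts is given beside these counts, and 94.7% of proximal cytosines were low. The counts therefore do not identify the tissue. Methylation at a start is a weak marker of cell type, and no expression was used here.

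At single members, the differences between mice of the same strain and of unlike strain overlapped. Mean absolute differences were 6.14 points for the Mixed pair and 5.89 points for the B6 pair, and 5.95 to 6.56 points for the 4 pairs of unlike strain. The pairs share mice and are given without a test. Pearson's r over the members was 0.968 to 0.975 in the 6 pairs, and 0.984 to 0.987 over all autosomal cytosines, for which more sites lie near 0. The r is across cytosines that share fragments and depth and is a description only. The mean squared difference over the members was 1.41 to 1.92 times what read counting alone gives. The root mean square difference was 9.55 points in the Mixed pair, where counting alone would give 8.05. It was 8.89 points in the deeper sequenced B6 pair, where counting alone would give 6.42. Amplified reads are not independent molecules, so counting error is a lower limit. With 10 reads, 3 methylated reads already make 30%.

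Members near the middle of the scale varied most. The mean SD over the 4 mice was 1.68 points for the 2590 members with a mean below 10%, 10.4 points for the 243 with a mean of 50% to 60%, and 4.06 points for the 1719 at 90% or more. Counting error is also largest in the middle of the scale. Over all members the median range between mice was 9.31 points, 4130 members (53.1%) ranged over less than 10 points, 708 (9.10%) over 25 points or more and 34 (0.437%) over 50 points or more. Mixed-1, the mouse with the lowest coverage summed over the members, was the farthest from the median at 19 of these 34, Mixed-2 and B6-1 at 6 each and B6-2 at 3. Of the 28 that had another common cytosine within 100 bp, 12 had no neighbour with a range of 25 points. Where Mixed-1 was the farthest, its coverage ran from 10 reads at the Vac14 site to 84 reads at the Stt3b site. The part of depth in these ranges was not tested.

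The region with the widest range between mice was that of Jund, a subunit of the AP-1 factor. Its 10 cytosines 2054 to 2446 bp upstream averaged 26.1% and 44.2% in the Mixed mice and 54.9% and 46.8% in the B6 mice, with a median coverage of 19.5 reads in Mixed-1 and 66 reads in B6-2. The next were Gm14147, at 66.7% in Mixed-2 and 90.1% to 92.3% in the other mice, Stk24, a Ste20-like kinase, at 55.6% to 79.6%, and Ccnc, the cyclin of the Mediator kinase module, at 51.1% to 74.3% with median coverages of only 12 to 26 reads. Csk, a kinase that inhibits Src, ranged between 17.2% (Mixed-1) and 38.2% (B6-2), and Syvn1, a ubiquitin ligase of the endoplasmic reticulum, between 61.2% (B6-1) and 81.2% (Mixed-1). At Stk24 both Mixed mice were below both B6 mice, and its 5 cytosines include the Stk24 site given below.

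Mean methylation of the members differed between the strains by less than the spread between mice. The mean was 49.7% ± 0.183 in Mixed and 49.6% ± 0.2499 in B6 (SD, n = 2 each), a difference of -0.171 points (B6 minus Mixed, exact permutation p = 0.667). The high share was 37.4% ± 0.355 in Mixed and 36.5% ± 0.300 in B6, and the intermediate share 24.9% ± 0.200 and 26.01% ± 0.0546. In both, the groups did not overlap, with an exact permutation p of 0.333, the smallest that 2 against 2 mice can give. Over all common autosomal cytosines they did not overlap either, in the same order. There the high share was 22.36% and 22.88% in the Mixed mice and 22.12% and 22.26% in the B6 mice. The intermediate share was 12.24% and 11.77% in the Mixed mice and 12.35% in both B6 mice. Depth moved with strain, since the median coverage of a member was 36 and 39 reads in the Mixed mice and 60 and 57 in the B6 mice, and its part in these shares was not tested.

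A logistic model was fitted at every common cytosine, with overdispersion moderated by limma, and a cytosine was called at an adjusted p (Benjamini-Hochberg) under 0.01 where strain means were 25 points or more apart. It called 73 of 1276684 cytosines (0.00572%) and 1 member. That member was a cytosine on the minus strand at chr17:27138829, 4938 bp upstream of Uqcc2, an assembly factor of mitochondrial complex III. It was methylated in 2.17% of 46 reads and 0% of 48 in the Mixed mice and 86.4% of 22 and 91.2% of 34 in the B6 mice. The difference was 87.7 points, higher in both B6 mice, with an adjusted p of 0.000673 from the limma-moderated fit. The 8 other common cytosines within 100 bp had a median range of 18.96 points over the mice. None of them ranged over more than 27.5 points, so that the difference was at a single cytosine. The cytosine on the opposite strand of its CpG was not a common cytosine. In these reads a T in the DNA of a mouse cannot be told apart from an unmethylated cytosine. Sequence differences between the mice were not tested. No member was called without B6-2, by limma on log2 ratios or with GENCODE transcripts excluded, and Fisher's exact test on pooled reads called 20. Over all 1276684 cytosines Fisher's exact test on pooled reads called 1613. Because 1 call of 7777 rests on 1 site, no share was compared.

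Below the threshold, the next smallest adjusted p was 0.0124, at a cytosine 4008 bp upstream of Stk24 with 28.2%, 0%, 90% and 83.6% in the 4 mice. It failed the correction at 0.01. Of all members, 61 (0.784%) had strain means at least 25 points apart, 27 of them higher in B6, beside 0.366% of all common autosomal cytosines. Among these 61, 53 also had an unadjusted p under 0.05 in the limma-moderated fit. Of all 1276684 common cytosines, 3772 met both conditions.

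A further 3480 cytosines lay at member positions but were not read at least 10 times in all 4 mice. Of these, 1326 (38.1%) had at least 10 reads in both B6 mice and in neither Mixed mouse. Their methylation was higher than that of the members, with a mean of 59.8% and 65.8% in the Mixed mice and 62.2% and 63.1% in the B6 mice, and low shares of 18.2% to 25.3%. The values of the members therefore describe the well-read part of this interval.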

How the data were processed

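The authors made ERRBS libraries from liver DNA of 2 Mixed and 2 B6 mice and sequenced single-end reads of 50 cycles. Per the labels, reads were processed with Bismark and SAMtools on mm10, whereas the methods of the study name BSMAP, and versions were not given in the sources used here. The deposited files hold, for each CpG cytosine and strand with at least 10 reads, the coverage as a count of reads and the percent of reads that were C and T, without normalization. Coverage summed over the listed cytosines was 60654199 to 99215153 per mouse, in which a read over several CpGs counts several times.

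Methylated reads were computed as percent times coverage. Positions came from RefSeq on GRCm38, and all annotated transcripts, predicted ones included, excluded a site. Members, gene lists and rules were chosen with earlier results of these data known. The lists were developmental transcription factors, hepatocyte genes, non-parenchymal and blood cell markers, germline genes and imprinted genes. Named by rule were the 10 low, 6 intermediate and 4 high regions with the most cytosines, the 6 with the widest range, the 5 genes with the most low cytosines and the called cytosines. A gene that these rules select is not reported here. Other genes were named from the lists, after their values were seen.

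Differences between site groups were tested over the 4 mice by exact two-sided sign-flip permutation, and strains by exact permutation. Nothing says whether mice shared a litter. Strain differences at single cytosines came from a logistic model with overdispersion moderated by limma 3.58.1 in R 4.3.3 and data.table (version 1.17.8), tested on simulated data. Other values used Python 3.11.15, numpy 2.4.6, scipy 1.17.1, pandas 2.3.3 and numba 0.67.0, and plots matplotlib 3.10.9. Alternatives were coverage minima and ceilings, merged strands, curated transcripts only, repeats left out, regions counted once, other class bounds, pooled reads, other bins, windows and gaps, the replicate block, a test of pooled reads (Fisher's exact), limma fitted to log2 ratios, and each mouse left out. Excluding GENCODE transcripts was added after seeing the data.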

Additional observations from a re-analysis of the deposited data

How the results depend on the processing

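The difference between members and proximal cytosines, that between members and remote cytosines and that of CpG-dense and other members kept their direction under every alternative run. The far minus near difference turned to -1.24 points in members that were not CpG-dense. Levels moved with which sites count. Mean methylation of the members was 46.6% with at least 20 reads, 51.8% with strands merged, 38.9% with curated transcripts only, 45.6% without repeats, 67.3% with regions counted once, 45.5% with reads pooled and 51.4% without GENCODE transcripts. The low share was 41.2%, 34.4%, 50.8%, 41.8%, 14.7% and 35.5% under the same settings other than pooling, and 33.2% with class bounds at 10% and 90%. The high share was 34.6%, 38.4%, 28.1%, 32.4%, 50.2% and 38.6%, and 23% with those bounds. The intermediate share was 24.2% with at least 20 reads, 27.2% with strands merged, 21.1% with curated transcripts, 35.1% with regions counted once and 43.7% with bounds at 10% and 90%. With curated transcripts only, 13496 sites were members and 296 regions were low. The mean absolute difference between mice of 1 strain was 6.02 points, 5.37 with at least 20 reads and 5.07 with curated transcripts. The cause of these shifts was not tested. Of the values of named regions under alternatives, 224 stayed within the SD over the mice and 8 did not, among them Dhx34, at 77.8% without repeats.

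The 1 strain call became 20 by Fisher's exact test on pooled reads, where 1613 of all 1276684 common cytosines were called. With an adjusted p under 0.05 and a difference of 10 points it became 2, beside 258 of all. It was 2 with a coverage ceiling, beside 80 of 1274827, and 2 with curated transcripts. It was 0 without GENCODE transcripts, near which the Uqcc2 site lies. It became 0 by limma on log2 ratios, where 44 members with 25 points had an unadjusted p under 0.05, beside 3105 of all common cytosines. The number of calls also changed with 1 mouse left out, and those counts, each with a lone mouse in 1 strain, are not compared here. A lone mouse is then assumed to vary like the others. The strain difference in mean methylation was -0.348 to 0.00533 points with 1 mouse left out.

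Both strains have mice labelled 1 and 2, but deviations of same-numbered mice did not correlate over all common cytosines (-0.000202), so the numbers were not read as pairs. The replicate block called 237 of all common cytosines, 2 of them members, at Uqcc2 and Stk24. It left the mean strain difference at -0.171 points (exact permutation p = 0.5). Depth limits single cytosines and the low-coverage regions named, while means over all members are limited by 4 mice.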
